A study of Mus musculus with 12 samples.

Results

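Kidneys of KL null mice, which lack klotho, were compared with wild-type kidneys on Affymetrix whole-transcript arrays, with both genotypes injected with vehicle. The comparison used the 4 arrays titled KL Null and the 4 titled WT-Vehicle, 8 of the 12 arrays in the series, and covered every probe set with exactly 1 gene symbol, reduced to 1 probe set per gene, or 19938 genes. The mice were female, had 5 to 8 weeks of standard diet, received 100 µl of saline into the peritoneum and were killed 1 hour later. The wild-type samples carry the strain label C57BL/6 and the KL null samples the label 129/SvEv/C57BL/6, although the protocol describes the wild-type mice as littermates. Genotype and strain label therefore cannot be told apart, and every difference below is a difference between these groups as labelled. The third group, wild-type mice given FGF23, was used only to estimate the spread per gene and as a further look at the wild-type range, and the protocol's other treatments are left aside. The replicates are numbered 1 to 4 without a statement that each was a separate mouse, so p-values reflect only how far these samples scatter.

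Klotho is a membrane protein of the distal and, at lower level, the proximal renal tubule that binds FGF receptors and makes them receptors for the bone hormone FGF23. Through it FGF23 removes phosphate transporters from the proximal tubule and keeps the synthesis of active vitamin D low, so animals without klotho are known for high serum phosphate, calcium and active vitamin D, soft tissue calcification and early ageing-like disease. Active vitamin D in turn acts on its nuclear receptor to raise calcium transport genes in gut and distal tubule.

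Values are the deposited log2 signals, on which a difference of 1 is a doubling, and a difference is always KL null minus wild-type vehicle. A gene was called higher or lower when its p from limma, adjusted over all 19938 genes by the Benjamini-Hochberg method, was below 0.05. The SE of a difference is that of the same fit. No probe set's level was ranked against another's, because array signals are not amounts. Members cited as not called are further members of their lists and, apart from those the naming rule gave (Slc34a3, Calb1 and H2-Aa), were named after their values were seen. Kidney tissue was measured in both genotypes as labelled: Umod of the thick ascending limb lay between 12.66 and 12.76 in the 4 wild-type arrays and between 12.58 and 12.91 in the 4 KL null arrays, and Aqp2 of the collecting duct between 9.55 and 9.89 and between 9.28 and 9.75. In whole kidney, fewer cells of a type and less RNA per cell cannot be told apart.

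KL null replicate 1 stood apart from the other 3 KL null arrays for many of the changed genes. It was the KL null array nearest to the wild-type mean for 718 of the 1598 called genes (44.9%), while the other 3 arrays were nearest for 10.9% to 25.2%. It was nearest for 20 of 23 called macrophage genes and 12 of 13 called tubule injury genes. The spread (SD) of log2 values within an array ranged from 2.166 to 2.281, and KL null replicates 1 and 2, at 2.195 and 2.217, lay below the 4 wild-type vehicle arrays.

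The 2 genotypes differed in 1598 of 19938 genes, 8.01% of those tested. Of these, 713 were higher (3.58%) and 885 lower (4.44%) in KL null. Most differences were small: 1107 called genes differed by less than 1.5-fold and 355 by 1.5-fold to 2-fold. At least 2-fold differences were found for 58 higher genes (0.291%) and 78 lower genes (0.391%). The 4 KL null arrays and the 4 wild-type vehicle arrays did not overlap for 1426 of the called genes, and such separation was seen for 13.8% of all genes. For 1065 called genes, 66.6% of them, the KL null arrays also lay outside the range of all 8 wild-type arrays, against 8.13% of all genes. Centring each array on its own median gave 453 higher and 1369 lower genes, 24.9% higher in place of 44.6%, so the balance of the directions rests on the scaling of the arrays. The total fell to 831 without wild-type vehicle replicate 1, 828 without wild-type vehicle replicate 3, 1003 without KL null replicate 2 and 856 without KL null replicate 3.

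**Figure D1:**
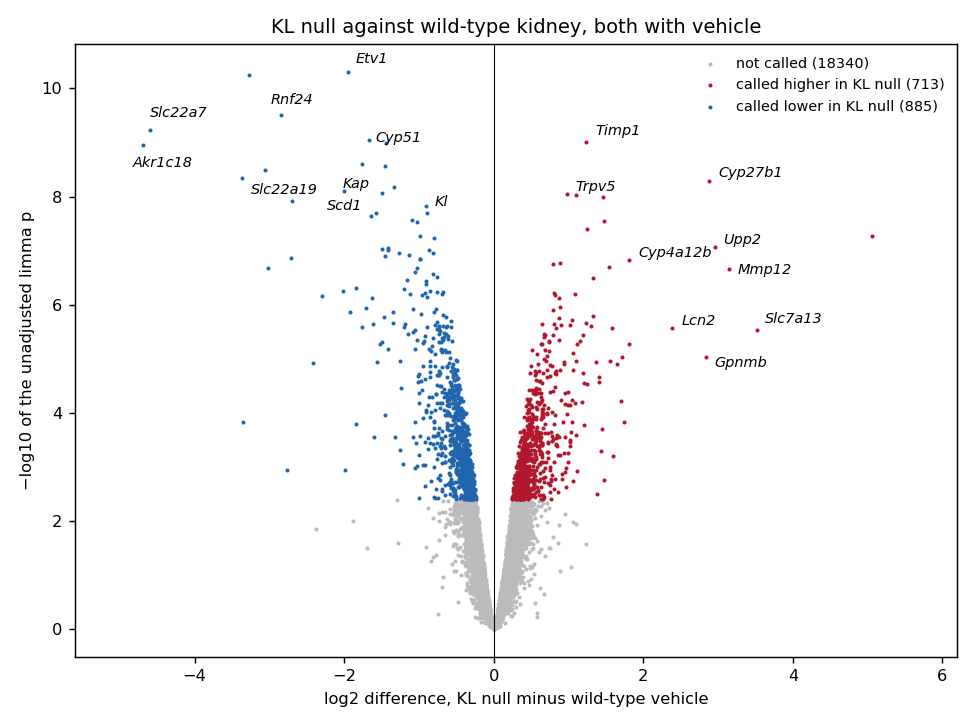
Each point is 1 of 19938 genes, placed by its log2 difference (KL null minus wild-type vehicle, horizontal) and the −log10 of its limma p (vertical), with called genes coloured by direction and some of the named genes labelled. The 713 higher and 885 lower genes lie mostly at small differences, and Akr1c18, Slc22a7, Slc7a13 and Mmp12 lie far out.

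Klotho itself served as the check of the labels. Kl read 10.67, 10.45, 10.74 and 10.58 in wild type and 9.66, 9.76, 9.66 and 9.8 in KL null. The groups did not overlap, and the difference was -0.89 (SE 0.0831, adjusted p = 1.75e-05). The annotation used here does not say which exons the Kl probe set covers, so a signal that remains does not show that the intact transcript remains. Cyp27b1, which makes active vitamin D, read 6.97, 6.7, 7.08 and 6.26 in wild type and 9.03, 9.81, 10.24 and 9.46 in KL null. Every KL null array lay above every wild-type array, and the gene was 7.37-fold higher (log2 difference 2.88, SE 0.243, adjusted p = 7.82e-06).

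Around these genes, a list of 15 measured genes for klotho, FGF receptors and vitamin D held 1 higher and 5 lower genes, or 40.0% called against 8.01% of all genes. Its median difference was -0.28 against 0.025 over all genes. The lists here and below were chosen with earlier results of these data known, so their shares are not tests of a list. Vdr, the vitamin D receptor, read 9.67, 9.46, 9.61 and 9.45 in wild type and 9.15, 8.81, 8.92 and 8.76 in KL null. It was lower in all 4 KL null arrays than in any wild-type array (-0.64, SE 0.0957, adjusted p = 0.000921). The receptors that bring filtered vitamin D with its binding protein into the proximal tubule cell were lower as well. Lrp2 (megalin) read 12.75, 12.6, 12.82 and 12.72 in wild type and 12.23, 12.24, 12.19 and 12.22 in KL null (-0.50, SE 0.0822, adjusted p = 0.00175). Its partner Cubn (cubilin) differed by -0.39 (adjusted p = 0.019) and the adaptor Dab2 by -0.32 (adjusted p = 0.0226), both named after their values were seen. Cubn lost its call without wild-type vehicle replicate 3 (adjusted p = 0.0728) or KL null replicate 3 (0.0608), and Dab2 in 4 of the fits that left out 1 array, those without wild-type vehicle replicate 1 or 3 or KL null replicate 3 or 4 (up to 0.0781). The FGF receptors Fgfr1 to Fgfr4 were not called.

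**Figure D2:**
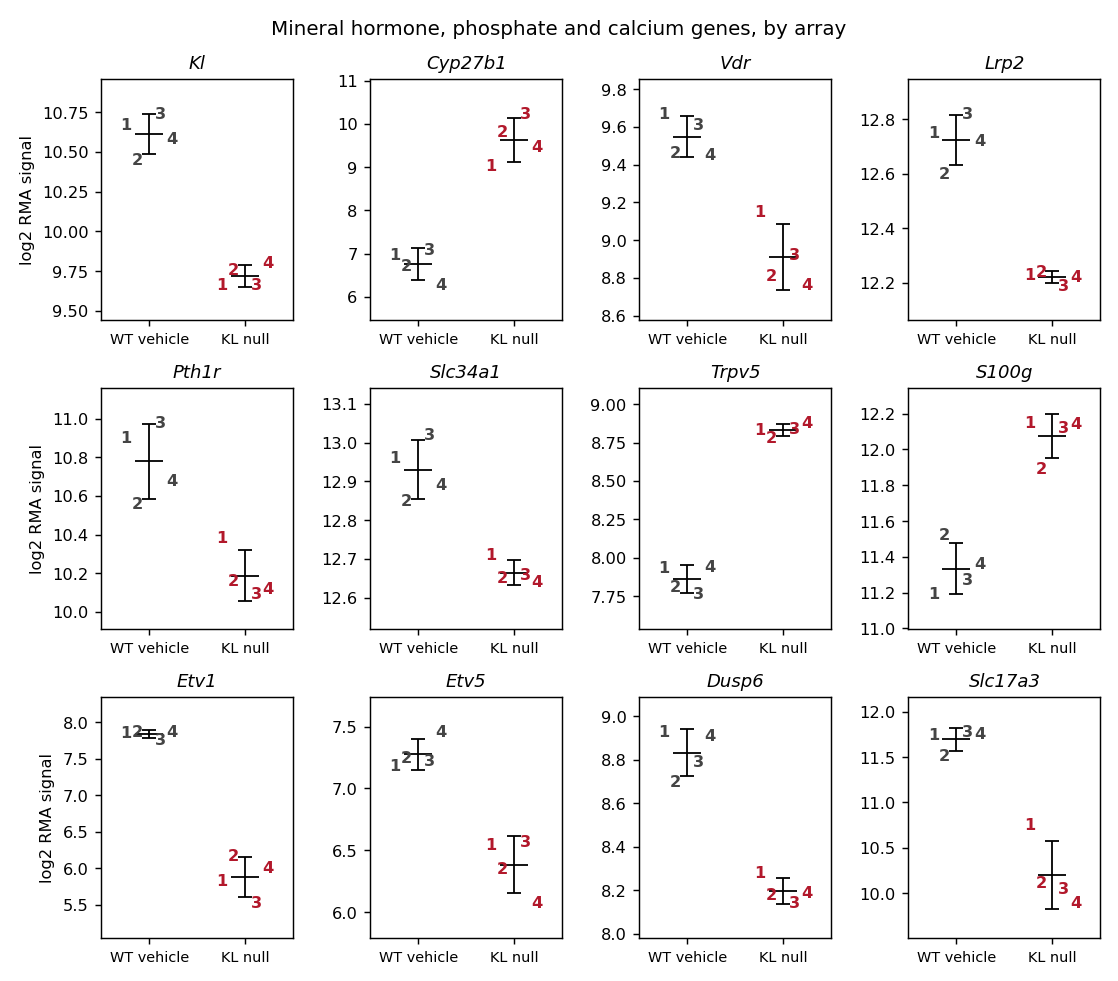
Log2 signal (vertical) of 12 genes of mineral handling and FGF signalling in the 4 wild-type vehicle and 4 KL null arrays, with each array drawn as its replicate number, the group mean as a bar and the SD as a whisker. Cyp27b1, Trpv5 and S100g stand higher in KL null, and Kl, Vdr, Lrp2, Pth1r, Etv1, Etv5, Dusp6 and Slc17a3 stand lower.

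Phosphate handling genes were mostly lower or did not pass the test. Of 15 measured, 1 was higher and 5 lower, or 40.0% called against 8.01% of all genes, with a median of -0.18. Slc34a1, the main sodium phosphate cotransporter of the proximal brush border, read 12.96, 12.85, 13.02 and 12.89 in wild type and 12.71, 12.65, 12.66 and 12.64 in KL null. The groups did not overlap, yet the difference was small (-0.27, SE 0.07, adjusted p = 0.0305) and its call was lost in 9 of 22 alternative settings, among them the fits without wild-type vehicle replicate 1 (adjusted p = 0.0921), wild-type vehicle replicate 3 (0.102) or KL null replicate 2, 3 or 4. After a further quantile normalization its adjusted p was 0.74. Slc34a3, a second brush border phosphate transporter, read 9.57, 9.46, 9.64 and 9.69 in wild type and 9.57, 9.22, 8.94 and 9.15 in KL null. KL null replicate 1 lay inside the wild-type range for Slc34a3, and the difference of -0.37 was not called (adjusted p = 0.144). Slc34a3 was called lower in 3 of the 22 alternative settings (limma adjusted p down to 0.0113).

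Genes for the receptors and scaffolds that regulate these transporters were tested in the same list. Pth1r, the parathyroid hormone receptor, read 10.9, 10.56, 10.98 and 10.68 in wild type and 10.38, 10.16, 10.09 and 10.12 in KL null (-0.59, SE 0.0998, adjusted p = 0.00219). Pdzk1, a brush border scaffold, read 11.78, 11.72, 11.84 and 11.86 in wild type and 11.52, 11.31, 11.25 and 11.16 in KL null (-0.49, adjusted p = 0.00268). Both were lower in every KL null array. A second scaffold, Slc9a3r1 (NHERF1), named after its values were seen, differed by -0.35 (adjusted p = 0.0301), but this call was lost when any 1 of the 8 arrays other than wild-type vehicle replicate 4 was left out (up to 0.105). The higher gene was Stc2, which encodes the secreted glycoprotein stanniocalcin. It read 6.48, 6.69, 6.64 and 6.24 in wild type and 7.17, 7.18, 7.24 and 7.19 in KL null; the KL null arrays lay close together (0.68, SE 0.101, adjusted p = 0.000857). Slc17a3, a transporter of urate and organic anions from a family first described as phosphate transporters, read 11.74, 11.51, 11.78 and 11.75 in wild type and 10.75, 10.12, 10.05 and 9.89 in KL null. It was 2.81-fold lower (-1.49, SE 0.156, adjusted p = 5.4e-05).

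FGF signalling through the MAP kinase cascade induces its own inhibitors and a set of ETS transcription factors. A list of 26 such genes held 0 higher and 5 lower genes, or 19.2% called against 8.01% of all genes, with a median of -0.01. Only 3 of the 26 were called without wild-type vehicle replicate 1, KL null replicate 2 or KL null replicate 4. The ETS factor Etv1 read 7.85, 7.87, 7.76 and 7.86 in wild type and 5.83, 6.17, 5.52 and 6.01 in KL null. This difference of -1.95 (SE 0.118, adjusted p = 5.52e-07) was far larger than the spread within either group. Etv5, a related factor, read 7.18, 7.25, 7.22 and 7.46 in wild type and 6.54, 6.35, 6.57 and 6.07 in KL null (-0.90, SE 0.11, adjusted p = 0.000198). Dusp6, the phosphatase that switches off ERK, read 8.93, 8.7, 8.79 and 8.91 in wild type and 8.28, 8.18, 8.14 and 8.19 in KL null (-0.64, SE 0.0838, adjusted p = 0.000389). For all 3 genes the groups were fully separated. Phlda1 differed by -0.37 (adjusted p = 0.03) and Spred2, an inhibitor of the cascade, by -0.32 (adjusted p = 0.0352). Phlda1 lost its call without wild-type vehicle replicate 1 or 3 or KL null replicate 2, 3 or 4, and Spred2 without wild-type vehicle replicate 1, 2 or 4 or KL null replicate 1, 2 or 4, up to an adjusted p of 0.102 for Phlda1 and 0.0992 for Spred2, the latter named after its values were seen. The Sprouty inhibitors Spry1 to Spry4 and the immediate early gene Egr1 (0.40, adjusted p = 0.106) were not called.

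Of 21 measured genes of calcium and magnesium reabsorption in the distal nephron, 5 were called higher and 2 lower, or 33.3% against 8.01% of all genes. All 21 split into 10 positive and 11 negative differences, with a median of -0.01, and centring each array on its median gave 4 higher and 3 lower. Trpv5, the calcium entry channel of the distal convoluted and connecting tubule, read 7.93, 7.81, 7.76 and 7.94 in wild type and 8.83, 8.78, 8.84 and 8.88 in KL null. It was 1.96-fold higher, and the KL null arrays lay close together (0.97, SE 0.0855, adjusted p = 1.05e-05). S100g (calbindin-D9k), which carries calcium through the cell, read 11.19, 11.52, 11.27 and 11.36 in wild type and 12.15, 11.89, 12.12 and 12.14 in KL null (0.74, SE 0.107, adjusted p = 0.000689). Trpv6, a related calcium channel, read 5.49, 5.73, 5.63 and 5.5 in wild type and 6.12, 6.31, 6.05 and 5.99 in KL null (0.53, SE 0.103, adjusted p = 0.00537). These 3 genes were separated between the groups. The magnesium channel Trpm6 was higher by 0.50 (adjusted p = 0.00836). Cldn16, a tight junction protein for calcium and magnesium in the thick ascending limb, was higher by 0.42 (adjusted p = 0.0211), but not without wild-type vehicle replicate 3 or KL null replicate 3 or 4 (up to 0.077). Trpm6 and Cldn16 were named after their values were seen.

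Among the lower genes, Cnnm4, of a family of magnesium transport proteins, read 8.09, 7.83, 8.22 and 7.84 in wild type and 7.04, 7.09, 7.22 and 7.58 in KL null (-0.76, adjusted p = 0.00174). Its relative Cnnm2, also named after its values were seen, differed by -0.34 with an adjusted p of 0.0456 that rose above the threshold in 9 of the fits that left out 1 array, those of KL null replicates 1 to 4, of wild-type vehicle replicates 1 and 3 and of FGF23 replicates 2, 3 and 4 (up to 0.151). Calb1, the larger calbindin of the same cells as Trpv5, read 10.46, 10.06, 10.2 and 10.48 in wild type and 10.54, 10.29, 10.41 and 10.42 in KL null. The arrays overlapped, and the difference of 0.12 was not called (adjusted p = 0.703).

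Sodium and potassium transport genes of the distal nephron showed 0 higher and 1 lower of 23, or 4.3% called against 8.01% of all genes, with a median of -0.08. The lower gene, Slc12a3, the thiazide-sensitive sodium chloride cotransporter, read 11.83, 11.62, 11.91 and 11.7 in wild type and 11.53, 11.44, 11.32 and 11.5 in KL null. Its difference of -0.32 (adjusted p = 0.0469) was not called in 12 of 22 alternative settings and lost its call without wild-type vehicle replicate 1, 3 or 4, KL null replicate 2, 3 or 4 or FGF23 replicate 3, with an adjusted p of up to 0.151. Genes of the collecting duct showed 0 higher and 2 lower of 27, or 7.4% called, near the share of all genes, with a median of -0.10. Insrr, a receptor that senses alkaline pH, read 7.49, 7.44, 7.74 and 7.52 in wild type and 7.18, 7.19, 6.91 and 6.9 in KL null (-0.50, adjusted p = 0.00516). The ammonia transporter Rhbg differed by -0.35 (adjusted p = 0.0298). That call was lost without wild-type vehicle replicate 1, 3 or 4 or KL null replicate 2, 3 or 4 (up to 0.102), which left 1 called gene in the list.

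The proximal tubule reabsorbs most of the filtrate, and its transporters for sugars, carboxylates and other solutes were mostly on the lower side. Of 23, 10 were lower and 1 higher, or 47.8% called against 8.01% of all genes, with a median of -0.14. Without wild-type vehicle replicate 3 only 1 was called higher and 5 lower. Slc5a10, a mannose and fructose transporter, read 10.33, 10.14, 10.3 and 10.54 in wild type and 9.14, 8.77, 8.45 and 9.11 in KL null (-1.46, adjusted p = 6.17e-05). Slc13a3, a dicarboxylate transporter of the basolateral side, read 11.39, 11.26, 11.66 and 11.35 in wild type and 10.92, 10.75, 10.71 and 10.39 in KL null (-0.72, adjusted p = 0.0025). The 1 higher gene, Slc16a9 of the monocarboxylate transporter family, read 10.17, 10.56, 10.26 and 10.49 in wild type and 11.12, 11.18, 10.87 and 10.89 in KL null (0.65, adjusted p = 0.00221). Megalin, above, belongs to this list too.

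Enzymes of the proximal tubule, including gluconeogenesis, were called in both directions, with 4 higher and 7 lower of 28, or 39.3% against 8.01% of all genes. Most leaned lower: 23 of the 28 differences were negative and 5 positive, with a median of -0.18. Upp2, a uridine phosphorylase, read 5.69, 6.2, 5.85 and 6.51 in wild type and 7.91, 9.19, 9.61 and 9.35 in KL null. It was 7.74-fold higher (2.95, SE 0.308, adjusted p = 5.36e-05), with KL null replicate 1 the lowest of its group. Gatm, which makes the precursor of creatine, read 12.34, 12.18, 12.31 and 12.25 in wild type and 11.62, 11.17, 11.19 and 11.14 in KL null (-0.99, adjusted p = 3.55e-05). Acsm1, a medium-chain acyl-CoA synthetase, read 10.98, 11.29, 11.24 and 10.96 in wild type and 10.22, 9.81, 9.75 and 9.62 in KL null (-1.27, adjusted p = 5.89e-05). Of genes named after their values were seen, Miox, the enzyme that breaks down inositol, differed by -0.51 (adjusted p = 0.00553), Fbp1 of gluconeogenesis by -0.34 (adjusted p = 0.00895), and Xdh, which makes urate, by 0.63 (adjusted p = 0.00072).

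Transporters of organic anions, cations and drugs held several of the largest decreases, with 14 lower and 2 higher of 52 measured. The share called was 30.8% against 8.01% of all genes, and the median was -0.04. Slc22a7 (OAT2) read 10.13, 10.16, 10.91 and 9.97 in wild type and 5.93, 5.59, 5.33 and 5.9 in KL null. It was 24.3-fold lower, with a wide gap between the groups (-4.61, adjusted p = 2.78e-06). The wild-type arrays given FGF23 read 8.76, 9.24, 10.52 and 10.51, a wide spread but above every KL null array. Slc22a19 (OAT5) read 11.59, 11.65, 11.51 and 11.49 in wild type and 7.29, 7.76, 8.68 and 9.05 in KL null, a decrease of 10.3-fold (-3.37, adjusted p = 7.41e-06). Abcc3, an efflux pump for conjugated anions, read 9.53, 9.3, 9.93 and 9.1 in wild type and 7.47, 7.82, 7.54 and 8.0 in KL null, or 3.38-fold lower (log2 -1.76, adjusted p = 0.000479). The 3 genes were separated in every array.

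Slc22a26 read 8.98, 8.55, 8.8 and 6.09 in wild type and 4.75, 4.61, 4.8 and 4.83 in KL null (-3.36, adjusted p = 0.00651), with wild-type vehicle replicate 4 far below the rest of its group. The gene varied widely among wild-type kidneys: the arrays given FGF23 read 5.79, 5.97, 8.61 and 8.7. Its near-identical neighbours Slc22a27 (-1.19) and Slc22a29 (-1.08), named after their values were seen, were lower too, and the probes of this gene family may share signal. Slc22a13, a urate and nicotinate transporter, read 10.75, 10.91, 10.91 and 10.55 in wild type and 9.83, 9.88, 9.56 and 9.73 in KL null (-1.03, adjusted p = 8.64e-05). Of the classic basolateral uptake transporters, Slc22a2 (OCT2) differed by -0.71 (adjusted p = 0.00069) and Slc22a8 (OAT3) by -0.57 (adjusted p = 0.0016), both named after their values were seen. Slc22a6 (OAT1), at -0.40, was not called (adjusted p = 0.0591). In the other direction, the anion transporter Slco4c1 read 5.99, 7.1, 6.25 and 7.31 in wild type and 8.25, 8.48, 8.05 and 8.44 in KL null, the highest 4 of the 8 arrays (1.64, adjusted p = 0.00132).

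Amino acid transporters changed in both directions, 6 higher and 9 lower of 51, or 29.4% called against 8.01% of all genes, with a median of 0.10. The total was 8 without wild-type vehicle replicate 1 and 9 without KL null replicate 2 or KL null replicate 3. Slc7a13, an aspartate, glutamate and cystine transporter of the late proximal tubule, read 5.65, 6.07, 5.74 and 5.69 in wild type and 11.33, 8.23, 9.11 and 8.57 in KL null. It was 11.5-fold higher (3.52, SE 0.488, adjusted p = 0.000506), and KL null replicate 1, close to wild type for many other genes, was the highest array here. Slc7a12 read 12.24, 12.07, 12.17 and 12.12 in wild type and 11.01, 11.38, 10.99 and 11.3 in KL null (-0.98, adjusted p = 0.00211). Slc6a18, a brush border transporter of glycine and other neutral amino acids, read 10.99, 10.91, 11.05 and 11.04 in wild type and 10.24, 10.42, 10.37 and 10.41 in KL null (-0.64, adjusted p = 0.000479). Among members named after their values were seen, Slc7a8, a basolateral exchanger of neutral amino acids, was lower by -0.99 (adjusted p = 0.00937). The glutamine transporter Slc38a3 was higher by 0.88 (adjusted p = 0.0151), but not without wild-type vehicle replicate 1 (0.0578) or KL null replicate 2 (0.054). The taurine transporter Slc6a6 was higher by 0.55 (adjusted p = 0.0112).

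Steroid-metabolising dehydrogenases and aldo-keto reductases held 4 higher and 4 lower of 31, or 25.8% called against 8.01% of all genes. The median was 0.03, and 4 were called in all without wild-type vehicle replicate 1. Akr1c18, which inactivates progesterone, read 12.65, 11.9, 12.36 and 12.03 in wild type and 8.01, 6.57, 8.11 and 7.49 in KL null. At 25.8-fold lower it was the largest decrease among the named genes (-4.69, adjusted p = 2.78e-06). Akr1c14, which reduces steroid hormones, read 10.39, 10.08, 10.07 and 9.88 in wild type and 6.79, 6.31, 7.52 and 7.73 in KL null, or 8.1-fold lower (log2 -3.02, adjusted p = 8.61e-05). In the wild-type arrays given FGF23, Akr1c14 spread widely, at 8.67, 9.37, 10.28 and 10.29, but stayed above KL null. The nearly identical Akr1c13 (1.10, adjusted p = 0.00122) and Akr1c12 (0.78, adjusted p = 0.0265) were higher, and probes may not part them. Akr1c12, named after its values were seen, lost its call without wild-type vehicle replicate 1 or 3 or KL null replicate 1 or 3 (up to 0.0934).

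Cytochrome P450 genes were called higher more often than lower, 12 against 3 of 67 measured. The share called was 22.4% against 8.01% of all genes, and the median was 0.07. Cyp2e1, which oxidises ethanol and small solvents, read 9.52, 10.05, 9.95 and 10.38 in wild type and 10.79, 11.42, 11.52 and 11.5 in KL null, 2.52-fold higher (1.33, adjusted p = 0.000388). Cyp4a12b, a fatty acid hydroxylase, read 5.74, 5.37, 5.67 and 6.25 in wild type and 7.29, 7.49, 7.48 and 8.02 in KL null, 3.51-fold higher (1.81, adjusted p = 6.9e-05). Its near copy Cyp4a12a differed by 1.36, and their probes may share signal. Cyp2j9 was higher by 0.90 (adjusted p = 0.000479) and Cyp2d12 lower by -1.42 (adjusted p = 0.000845).

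Conjugating enzymes were mixed, with 3 higher and 4 lower of 48, or 14.6% called against 8.01% of all genes, and a median of 0.00. Only 3 were called in all without wild-type vehicle replicate 1, wild-type vehicle replicate 3 or KL null replicate 3. The glucuronosyltransferase Ugt2b38 read 10.55, 9.58, 10.37 and 10.4 in wild type and 8.25, 8.11, 8.51 and 8.65 in KL null (-1.84, adjusted p = 0.000172). The glutathione transferase Mgst1 was higher by 0.81 (adjusted p = 0.0025). Targets of the oxidant-sensing factor NRF2 did not move one way: 2 of 21 were higher and 3 lower, or 23.8% called, with a median of -0.07. Nqo1, a quinone reductase, read 8.34, 8.48, 8.42 and 8.77 in wild type and 9.82, 9.59, 9.49 and 9.45 in KL null, 2.12-fold higher (1.08, adjusted p = 0.000187). Gclm, a subunit of the enzyme that starts glutathione synthesis, read 10.96, 10.92, 11.05 and 10.91 in wild type and 9.91, 10.06, 10.13 and 10.25 in KL null (-0.87, adjusted p = 5.42e-05). Its catalytic partner Gclc, named after its values were seen, differed by -0.58 (adjusted p = 0.0344), a call lost without wild-type vehicle replicate 1 or 3 or KL null replicate 1 or 3 (up to 0.117). Ephx1, which opens epoxides, was higher by 0.80 (adjusted p = 0.00047) and Me1, a source of NADPH, lower by -0.58 (adjusted p = 0.00243).

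Many of these genes are known to differ between male and female mouse kidney under the control of sex steroids. All mice here were labelled female. Of 6 measured genes known to be higher in females, 4 were lower in KL null and 1 was higher, or 83.3% called against 8.01% of all genes. The list median was -1.37. The lower ones were Slc22a7, Slc22a19, Abcc3 and Slc7a12, given above, and the higher one was Cyp4a14 (0.66, adjusted p = 0.00771). Of 16 genes known to be higher in males, 6 were higher and 4 lower in KL null, or 62.5% called, with a median of 0.09. The higher ones were Slc7a13, Cyp2e1, Cyp4a12a, Cyp4a12b, Cyp7b1 (0.48) and Cyp2d9 (1.11). Cyp2d9 lost its call without any 1 of wild-type vehicle replicates 1 and 3 and KL null replicates 2, 3 and 4 (up to 0.0876). Among the lower ones, Kap, the androgen-regulated kidney protein, read 13.2, 13.3, 13.2 and 13.06 in wild type and 12.01, 11.38, 11.91 and 11.48 in KL null, or 2.82-fold lower (log2 -1.50, adjusted p = 1.05e-05). Odc1, the first enzyme of polyamine synthesis, read 11.72, 11.41, 11.69 and 11.92 in wild type and 10.62, 10.65, 10.4 and 10.52 in KL null (-1.14, adjusted p = 6.17e-05). Nudt19 was lower by -0.75 (adjusted p = 0.00175). Cyp7b1, Cyp2d9 and Nudt19 were named after their values were seen. The male-associated genes thus moved both ways, while 4 of the 5 called female-associated genes moved down. Of these, Slc22a7, Slc22a19 and Abcc3 also lay apart from the wild-type arrays given FGF23. Slc7a12 did not: FGF23 replicates 1 and 2 read 11.34 and 11.37, inside the KL null range of 10.99 to 11.38.

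Growth hormone and IGF genes showed 0 higher and 3 lower of 20, or 15.0% called against 8.01% of all genes, with a median of -0.13. Leaving out 1 array gave more called genes without wild-type vehicle replicate 4 (6), KL null replicate 4 (5) or FGF23 replicate 4 (5). The receptor Ghr read 11.77, 11.7, 11.75 and 11.74 in wild type and 10.84, 11.12, 11.1 and 10.98 in KL null (-0.73, adjusted p = 0.000506). The binding protein Igfbp4 was lower by -0.43 (adjusted p = 0.01). Igfals, which stabilises circulating IGF complexes, differed by -1.05 (adjusted p = 0.0221), a call lost without wild-type vehicle replicate 1 or 3 or KL null replicate 3 (up to 0.0829). Socs2, a target of growth hormone named after its values were seen, read 9.54, 8.71, 9.52 and 8.09 in wild type and 7.19, 7.36, 7.91 and 8.24 in KL null, and its difference of -1.29 lay just past the threshold (adjusted p = 0.0504).

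In the renin-angiotensin system, 3 of 13 genes were lower and 0 higher, or 23.1% called against 8.01% of all genes, with a median of -0.08. Ace, the angiotensin-converting enzyme, read 9.44, 9.35, 9.54 and 8.96 in wild type and 7.71, 7.89, 8.1 and 8.19 in KL null. It was 2.55-fold lower and separated in every array (-1.35, SE 0.182, adjusted p = 0.00047). The peptidases Rnpep (-0.67, adjusted p = 0.00268) and Anpep (-0.60, adjusted p = 0.00497), which trim angiotensin peptides among others, were lower as well.

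**Figure D3:**
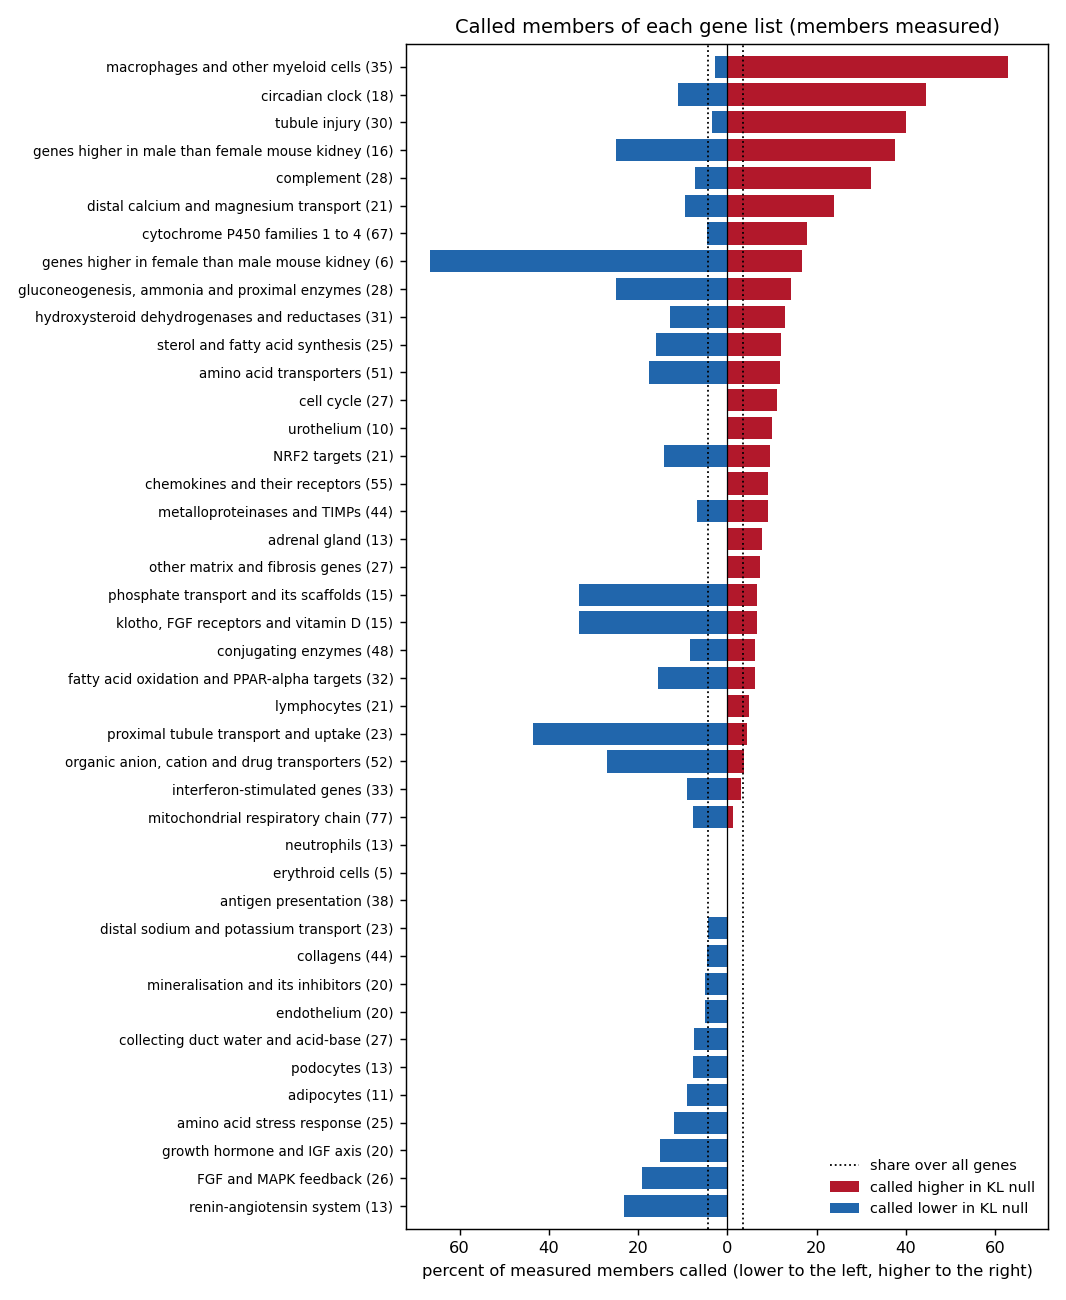
Percent of measured members called higher or lower in KL null (horizontal, limma adjusted p below 0.05) for each gene list with at least 5 measured members, with dotted lines at the shares over all genes, 3.58% higher and 4.44% lower. The macrophage, clock and tubule injury lists reach furthest on the higher side, and the female-higher and proximal tubule transport lists on the lower side.

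Genes known to rise in injured tubules were more often higher in KL null: 12 of 30 were higher and 1 lower. The share called was 43.3% against 8.01% of all genes, and the median was 0.37 against 0.025. The count of called genes was 6 to 8 without wild-type vehicle replicate 1, 2 or 3 or KL null replicate 2, 3 or 4. The mean over the list was 7.61, 7.36, 7.39 and 7.24 in the 4 wild-type arrays and 7.51, 7.9, 7.82 and 7.96 in the KL null arrays. KL null replicate 1 lay below only wild-type vehicle replicate 1. In that wild-type array the member Havcr1 read 10 against 4.59 to 5.17 in the other vehicle arrays, which raised its list mean. The mean without Havcr1 was not taken. Lcn2 (NGAL), secreted by injured tubules, read 7.08, 6.66, 6.82 and 6.29 in wild type and 7.87, 9.16, 9.32 and 10.05 in KL null, 5.23-fold higher (2.39, SE 0.328, adjusted p = 0.000486). Vcam1, an adhesion molecule of failed-repair tubule cells and activated endothelium, read 7.79, 7.87, 7.9 and 7.51 in wild type and 8.33, 8.63, 8.77 and 8.67 in KL null (0.83, adjusted p = 0.000486). Both were separated in every array. The keratin Krt8 was higher by 0.46 (adjusted p = 0.00461).

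Prom1 (CD133), a surface protein of renal progenitor-like cells, was the lower gene of the injury list. It read 9.31, 9.21, 9.1 and 9.3 in wild type and 8.58, 8.34, 8.48 and 8.29 in KL null (-0.81, adjusted p = 5.89e-05). Of members named after their values were seen, the hyaluronan receptor Cd44 was higher by 0.72 (adjusted p = 0.00517) and Dcdc2a, a ciliary protein, by 0.62 (adjusted p = 0.0104). Anxa1 read 8.39, 8.3, 8.29 and 8.31 in wild type and 8.36, 9.63, 9.45 and 9.5 in KL null, so that replicate 1 stood at the wild-type level, and its call (0.91, adjusted p = 0.0253) was lost without wild-type vehicle replicate 1, 2 or 3 or KL null replicate 2, 3 or 4 (up to 0.0828). Havcr1 (KIM-1), the most used marker of proximal tubule injury, also named after its values were seen, read 10, 5.17, 5.1 and 4.59 in wild type and 6.43, 6.24, 7.26 and 7.22 in KL null. Wild-type vehicle replicate 1 was the highest of the 8 arrays, and Havcr1 was not called (0.57, adjusted p = 0.843). Without that array the difference was 1.83 and still not called (adjusted p = 0.286).

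Macrophage genes formed the list with the most called members, 22 higher and 1 lower of 35. The share called was 65.7% against 8.01% of all genes, and the median was 0.61. Fewer were called without wild-type vehicle replicate 1 (14), KL null replicate 2 (15) or KL null replicate 3 (15). The mean over the list was 6.22, 6.33, 6.5 and 6.14 in the wild-type arrays and 6.61, 7.33, 7.1 and 7.07 in the KL null arrays, which did not overlap. Mmp12, the macrophage elastase, read 6.18, 6.44, 5.96 and 6.31 in wild type and 7.88, 10.42, 9.74 and 9.43 in KL null. It was 8.85-fold higher (3.15, SE 0.352, adjusted p = 8.75e-05). Gpnmb, a glycoprotein of lipid-loaded and phagocytic macrophages, read 4.95, 5.11, 4.93 and 5.08 in wild type and 5.9, 8.99, 8.27 and 8.24 in KL null (2.83, SE 0.432, adjusted p = 0.00107). In both genes KL null replicate 1 lay between the wild-type arrays and the other 3 KL null arrays.

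Other members of the macrophage list were higher by smaller amounts. Lyz2, lysozyme, read 7.26, 7.61, 8.3 and 7.39 in wild type and 8.56, 9.83, 9.54 and 9.48 in KL null, 3.28-fold higher (1.71, adjusted p = 0.0011). Ctss, cathepsin S, read 8.4, 8.27, 8.45 and 8.02 in wild type and 9.18, 10.46, 9.9 and 9.91 in KL null (1.58, adjusted p = 0.000486). The Fc receptor Fcgr3 was higher by 0.69 (adjusted p = 0.000575). Among members named after their values were seen, the integrins Itgam and Itgax were higher by 0.88 and 1.02 and the complement component C1qc by 0.64. Cd68, a lysosomal protein used as a pan-macrophage marker, read 6.37, 6.26, 6.52 and 5.85 in wild type and 6.29, 8.02, 7.36 and 7.57 in KL null. Its call (1.06, adjusted p = 0.0304) was lost without any 1 of 7 arrays, which are all 8 but KL null replicate 1 (up to 0.0943).

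Of the 35 differences in the macrophage list 33 were positive, and single markers of the lineage varied around them. Adgre1 (F4/80) read 6.39, 6.42, 6.82 and 6.18 in wild type and 6.43, 6.94, 6.8 and 6.63 in KL null and was not called (0.25, adjusted p = 0.444). Csf1r, the growth factor receptor of the lineage, was the 1 lower gene of the list: it read 8.64, 8.76, 8.8 and 8.67 in wild type and 7.8, 8.41, 8.1 and 8.37 in KL null (-0.55, adjusted p = 0.0321). That call was lost without any 1 of 6 arrays, the 4 wild-type vehicle arrays and KL null replicates 1 and 3 (up to 0.0942). The mannose receptor Mrc1 read 5.96, 6.19, 6.14 and 5.98 in wild type and 5.86, 6.84, 7.16 and 7.36 in KL null. It was not called over all arrays (0.74, adjusted p = 0.0616), but it was without KL null replicate 1 (adjusted p = 0.000191). The scavenger receptor Cd163 read 4.03, 4.46, 4.14 and 4.14 in wild type and 4.5, 4.8, 4.72 and 4.89 in KL null (0.53, adjusted p = 0.0377), and its call was lost without wild-type vehicle replicate 1, 3 or 4 or KL null replicate 2, 3 or 4 (up to 0.116). All 4 were named after their values were seen, and whether the part of macrophages in the tissue or the RNA of each cell differed was not measured.

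**Figure D4:**
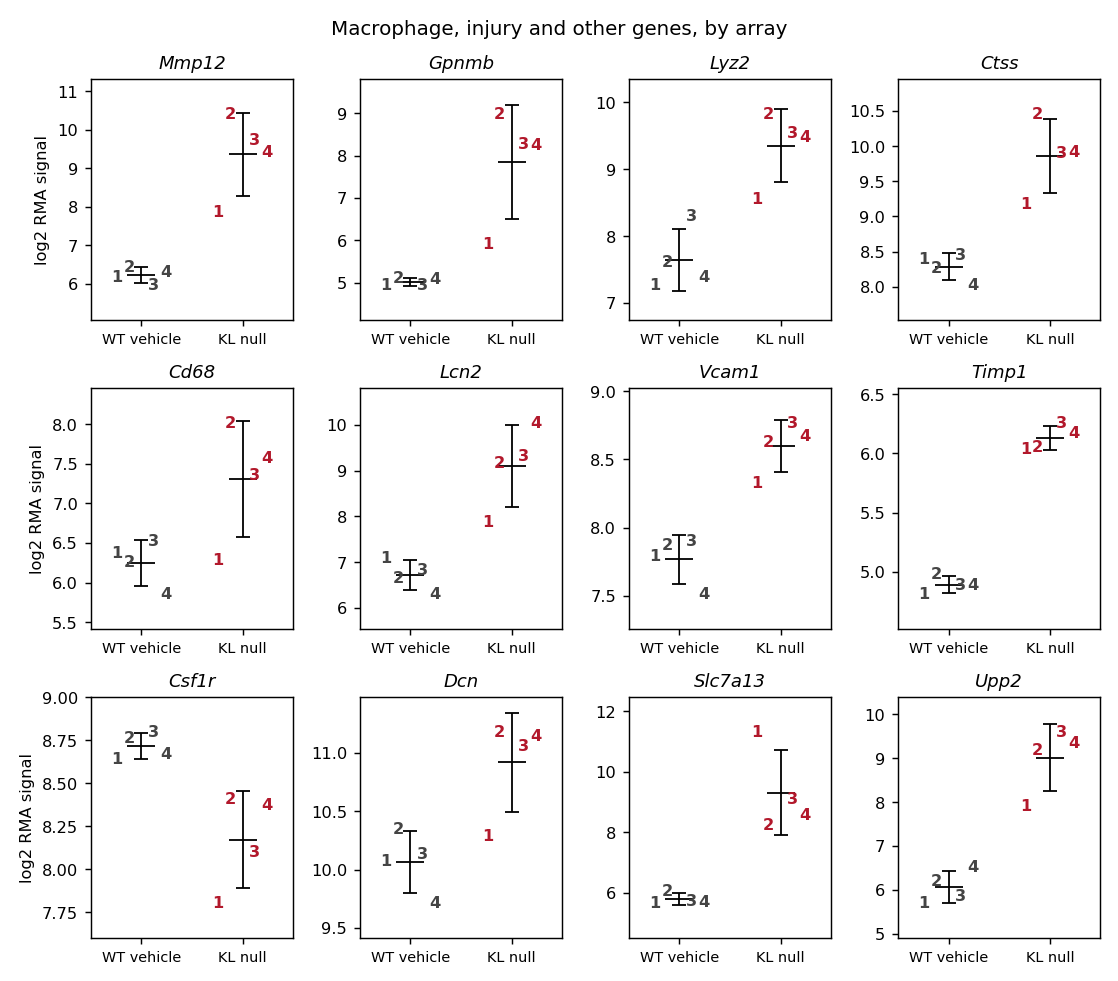
Log2 signal (vertical) of 12 genes in the 4 wild-type vehicle and 4 KL null arrays, with each array drawn as its replicate number, the group mean as a bar and the SD as a whisker. KL null replicate 1 lies nearest to wild type for Mmp12, Gpnmb, Lyz2, Ctss, Cd68, Lcn2 and Dcn, and is the highest KL null array for Slc7a13.

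Chemokines and their receptors showed 5 higher and 0 lower of 55, with a median of 0.09. The share called, 9.1%, was near the 8.01% of all genes, and the count was 3 without KL null replicate 3. Ccl9, a myeloid chemokine, read 5.68, 5.71, 5.58 and 5.09 in wild type and 6.29, 7.91, 7.06 and 7.02 in KL null (1.55, adjusted p = 0.00122). Ccl6, its relative, was higher by 1.11 (adjusted p = 0.000717) and the monocyte receptor Ccr2 by 1.09 (adjusted p = 0.00918). The monocyte attractant Ccl2 differed by 0.47 (adjusted p = 0.0205), but not without wild-type vehicle replicate 1, 2 or 3 or KL null replicate 2, 3 or 4 (up to 0.0692).

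Complement genes showed 9 higher and 2 lower of 28, or 39.3% called against 8.01% of all genes, with a median of 0.19. The called total was 5 without wild-type vehicle replicate 1, 7 without wild-type vehicle replicate 3, 5 without KL null replicate 2, and 6 without KL null replicate 3 or 4. C4b, of the classical pathway, read 5.19, 5.33, 5.27 and 5.12 in wild type and 6.15, 6.76, 6.04 and 6.06 in KL null (1.02, adjusted p = 0.000479). C3ar1, the receptor for a fragment of C3 on myeloid cells, read 6.18, 6.27, 6.72 and 6.5 in wild type and 7.18, 8.6, 7.67 and 7.85 in KL null (1.41, adjusted p = 0.00186). C8a, a chain of the membrane attack complex, went the other way. It read 8.33, 8.1, 8.42 and 7.85 in wild type and 5.19, 5.36, 5.75 and 5.57 in KL null, or 6.53-fold lower (log2 -2.71, adjusted p = 6.63e-05). The wild-type arrays given FGF23 spread from 6.73 to 8.5 for C8a, above KL null.

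The other immune lists moved little. Of 21 lymphocyte genes 1 was higher, the cytokine receptor Il7r, which read 4.21, 4.14, 3.88 and 3.52 in wild type and 4.49, 5.83, 5.37 and 5.66 in KL null (1.40, adjusted p = 0.00219). The T cell gene Cd3e differed by 0.05 and was not called. The share of the list called was 4.8% against 8.01% of all genes, and its median was 0.06. Of 13 neutrophil genes 0 were called by limma and 0 had an unadjusted p below 0.05. Of 38 antigen presentation genes 0 were called by limma and 7 had an unadjusted p below 0.05, and without wild-type vehicle replicate 3 there were 2 called. H2-Aa, a class II histocompatibility chain, read 9.67, 9.65, 9.81 and 8.93 in wild type and 10.29, 10.15, 10.2 and 10.17 in KL null, and its difference of 0.69 was not called (adjusted p = 0.065). It was called higher in 6 of the 22 alternative settings (limma adjusted p down to 0.0228). Interferon-stimulated genes showed 1 higher and 3 lower of 33, or 12.1% called, with a median of -0.12. Of the 33 differences 25 were negative, and without KL null replicate 1 there were 7 called, all lower. Gbp3, a guanylate-binding protein, read 10.48, 10, 10.53 and 9.3 in wild type and 8.28, 7.44, 7.59 and 7.34 in KL null (-2.42, adjusted p = 0.0013). For Gbp3 the wild-type arrays given FGF23 spread from 8.75 to 10.63, above KL null. The interferon list held 1 or 2 called genes, all lower, without each of wild-type vehicle replicates 1 (2) and 3 (1) and KL null replicates 2 (2) and 3 (1).

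Collagen genes showed few changes. Of 44 collagen genes 0 were higher and 2 lower, or 4.5% called, with a median of 0.02, and the fibrillar collagens Col1a1 and Col3a1 both differed by -0.07 and were not called. Both lower genes encode chains of the glomerular basement membrane. Col4a3 read 9.59, 9.44, 9.5 and 9.37 in wild type and 8.48, 8.65, 8.6 and 8.53 in KL null (-0.91, SE 0.083, adjusted p = 1.39e-05). Col4a4, which lies head to head with it in the genome, read 9.19, 8.96, 9.15 and 8.9 in wild type and 8.5, 8.73, 8.54 and 8.53 in KL null (-0.47, adjusted p = 0.0046). Their partner chain Col4a5 differed by 0.02 and was not called.

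Other matrix and fibrosis genes showed 2 higher and 0 lower of 27, or 7.4% called, with a median of 0.04, and 5 called without KL null replicate 1 but 1 without KL null replicate 2 or 3. Lox, which cross-links collagen, read 5.19, 5.06, 5.29 and 5.13 in wild type and 5.63, 5.73, 6.29 and 6.85 in KL null (0.96, adjusted p = 0.00962). The proteoglycan Dcn read 10.07, 10.35, 10.13 and 9.71 in wild type and 10.29, 11.18, 11.06 and 11.14 in KL null (0.85, adjusted p = 0.0152), and without KL null replicate 2 or 3 its adjusted p was 0.0538. Among matrix proteases and their inhibitors, 4 of 44 were higher and 3 lower, or 15.9% called against 8.01% of all genes. The median was 0.06, and 4 were called without wild-type vehicle replicate 3 or KL null replicate 3. Timp1, the inhibitor induced in inflamed tissue, read 4.81, 4.98, 4.89 and 4.89 in wild type and 6.04, 6.05, 6.26 and 6.17 in KL null, 2.36-fold higher (1.24, SE 0.0927, adjusted p = 2.78e-06). Unlike most inflammatory genes it had KL null replicate 1 beside the other arrays. Timp3 (-0.48, adjusted p = 0.00771) and Mmp13 (-0.59, adjusted p = 0.00812) were lower. A list of 20 genes of mineralisation, the process behind soft tissue calcification, held 0 higher and 1 lower gene, Nt5e, which makes adenosine (-0.92, adjusted p = 0.0109), with a median of 0.06. Its share called was 5.0%, below the 8.01% of all genes.

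In energy metabolism, the mitochondrial respiratory chain showed 1 higher and 6 lower of 77, or 9.1% called, near the 8.01% of all genes, with a median of -0.05. The list held 0 called genes without wild-type vehicle replicate 1 or 3 or KL null replicate 3, 1 without KL null replicate 2, and 3 without wild-type vehicle replicate 4 or KL null replicate 4. Fatty acid oxidation showed 2 higher and 5 lower of 32, or 21.9% called, with a median of 0.02. The count was 4 without wild-type vehicle replicate 1, 3 without KL null replicate 2, and 2 without wild-type vehicle replicate 3 or KL null replicate 3. Acadm, the medium-chain dehydrogenase, read 12.6, 12.52, 12.54 and 12.42 in wild type and 12.08, 11.92, 12.08 and 12.09 in KL null (-0.48, adjusted p = 0.00443).

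Sterol and fatty acid synthesis genes showed 3 higher and 4 lower of 25, or 28.0% called against 8.01% of all genes, with a median of -0.05. Cyp51, a demethylase of cholesterol synthesis, read 9.99, 9.97, 10.04 and 10.23 in wild type and 8.36, 8.28, 8.58 and 8.31 in KL null, or 3.19-fold lower (log2 -1.68, adjusted p = 2.78e-06). Scd1, which desaturates fatty acids, read 11.23, 10.97, 11.37 and 11.06 in wild type and 9.51, 9.76, 9.16 and 9.61 in KL null (-1.65, adjusted p = 1.86e-05). Fasn, fatty acid synthase, read 8.24, 8.08, 8.23 and 7.88 in wild type and 7.35, 7.37, 7.29 and 7.38 in KL null (-0.76, adjusted p = 0.000117). The elongase Elovl6 was lower by -0.80 (adjusted p = 0.00612), so the pathway from acetyl-CoA to monounsaturated fatty acids had 3 lower enzymes. The 3 higher genes of the list were Fdft1 (0.45, adjusted p = 0.0179), Insig1 (0.77, just under the threshold) and Pmvk (0.28, adjusted p = 0.049), named after their values were seen. These calls were fragile: Fdft1 lost its call without wild-type vehicle replicate 3 or KL null replicate 3, Insig1 in 8 and Pmvk in 11 of the 12 fits that left out 1 array. Without wild-type vehicle replicate 3 or KL null replicate 3, 0 of the list were higher and 4 were called in all. Amino acid stress genes showed 0 higher and 3 lower of 25, with 1 called without wild-type vehicle replicate 1, wild-type vehicle replicate 3 or KL null replicate 3, and the chaperone Hspa5 was lower by -0.51 (adjusted p = 0.00758).

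The circadian clock list had 8 higher and 2 lower of 18 genes, or 55.6% called against 8.01% of all genes, with a median of 0.41. The clock is a feedback loop in which ARNTL and CLOCK bind E-boxes and drive the Per and Cry genes, whose proteins repress them, while DBP and TEF activate and NFIL3 represses through D-boxes. The windows printed here, each the 250 bases before a RefSeq start on GRCm38.p6, read 5′ to 3′ along the gene, belong to called genes with a match, and show where those boxes stand. Capitals mark the match: the E-box CACGTG in Ciart (chr3:95882229-95882478, minus strand), Cry1 (chr10:85185055-85185304, minus strand) and Bhlhe41 (chr6:145865421-145865670, minus strand), and the D-box TTATGNAA in Per3 (chr4:151044666-151044915, minus strand).
Ciart: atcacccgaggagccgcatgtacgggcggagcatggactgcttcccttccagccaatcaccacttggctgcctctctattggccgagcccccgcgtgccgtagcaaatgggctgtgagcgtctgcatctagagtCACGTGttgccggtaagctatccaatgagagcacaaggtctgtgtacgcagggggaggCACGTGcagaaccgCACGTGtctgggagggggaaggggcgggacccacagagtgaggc
Cry1: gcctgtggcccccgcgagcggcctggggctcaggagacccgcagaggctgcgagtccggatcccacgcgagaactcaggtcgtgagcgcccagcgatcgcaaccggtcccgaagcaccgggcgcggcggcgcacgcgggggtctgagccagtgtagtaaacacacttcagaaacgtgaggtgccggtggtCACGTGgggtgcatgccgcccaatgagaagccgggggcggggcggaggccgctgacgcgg
Bhlhe41: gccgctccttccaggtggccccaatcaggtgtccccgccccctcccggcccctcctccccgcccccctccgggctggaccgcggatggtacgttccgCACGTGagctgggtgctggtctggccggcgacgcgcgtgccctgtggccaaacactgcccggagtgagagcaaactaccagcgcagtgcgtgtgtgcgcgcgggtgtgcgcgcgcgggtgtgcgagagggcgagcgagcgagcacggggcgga
Per3: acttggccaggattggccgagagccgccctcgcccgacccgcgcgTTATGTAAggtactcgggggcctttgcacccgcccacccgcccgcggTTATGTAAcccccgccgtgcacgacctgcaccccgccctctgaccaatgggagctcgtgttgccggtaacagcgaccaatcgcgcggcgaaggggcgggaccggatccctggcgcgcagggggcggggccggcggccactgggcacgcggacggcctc

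Both strands were searched, and the 2 motifs do not overlap each other. Ciart held 3 E-boxes, 116, 58 and 44 bases before the start, Cry1 held 1 at 60 and Bhlhe41 1 at 153, while Per3 held 2 D-boxes at 205 and 158. Of the 8 higher genes 7 had a window, and 4 of these held an E-box, the fourth being Tef. Of the 2 lower genes 0 held one, and of 7 uncalled clock genes 1 did, Per1. The D-box stood in 1 of the 7 higher genes with a window, Per3. It also stood in 1 of the 7 uncalled genes, Per1, and in 0 of the 2 lower genes. Of all 27025 genes with a window of this length, 6.86% held the E-box and 3.63% the D-box in at least 1, and of all 32851 windows 6.02% and 3.07%. A match describes letters in a window and is no evidence of binding, and its absence says only that the letters are not there.

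On the side of the repressors, Per3 read 6.73, 7.33, 7.11 and 7.6 in wild type and 7.92, 8.25, 8.3 and 8.03 in KL null (0.93, SE 0.147, adjusted p = 0.00134). Cry2 read 6.7, 6.75, 6.94 and 7.02 in wild type and 7.3, 7.77, 8.04 and 8.04 in KL null (0.94, SE 0.145, adjusted p = 0.00125). Ciart, a further repressor of the loop, read 6.0, 5.84, 5.6 and 6.4 in wild type and 6.68, 7.82, 8.2 and 8.1 in KL null (1.74, SE 0.346, adjusted p = 0.00651). Each was higher in all 4 KL null arrays, although the wild-type arrays given FGF23 overlapped KL null for Ciart. The mean of the FGF23 arrays lay between those of wild-type vehicle and KL null for Per3 (7.688), Cry2 (7.092) and Ciart (7.228). It did so for Bhlhe41 (5.542) and Dbp (8.995), given below, as well. Bhlhe41, which competes for E-boxes, read 5.17, 5.22, 4.96 and 5.7 in wild type and 6.0, 5.86, 6.46 and 6.71 in KL null (0.99, adjusted p = 0.00289). Per2 was higher by 0.81 (adjusted p = 0.0187) and Cry1 by 0.755 (adjusted p = 0.034), both named after their values were seen. Per2 lost its call without wild-type vehicle replicate 1 or 3 or KL null replicate 2 or 3 (up to 0.0644), and Cry1 without wild-type vehicle replicate 1, 3 or 4 or KL null replicate 2, 3 or 4 (up to 0.108).

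Of the D-box factors, Dbp read 7.98, 8.54, 8.18 and 9.0 in wild type and 9.39, 9.49, 9.39 and 9.24 in KL null (0.95, adjusted p = 0.0029), and Tef was higher by 0.53 (adjusted p = 0.00752). The 2 lower genes were the activator Arntl, at 7.31, 6.82, 7.43 and 6.26 in wild type and 6.19, 5.59, 6.1 and 5.7 in KL null (-1.06, adjusted p = 0.00646), and the D-box repressor Nfil3. Nfil3 read 7.38, 6.98, 7.49 and 6.68 in wild type and 6.01, 6.46, 6.49 and 6.7 in KL null (-0.72, adjusted p = 0.0301), and lost its call without any 1 of wild-type vehicle replicates 1 and 3 and KL null replicates 1, 2 and 3 (up to 0.108). Tef, Arntl and Nfil3 were named after their values were seen. Wild-type vehicle replicate 4 was the wild-type array nearest to the KL null mean for 9 of the 10 called clock genes, all but Cry1, against 39.2% of all called genes. Without it 8 clock genes were again called higher and 2 lower. KL null replicate 1 was the nearest KL null array for 7 of the 10 called clock genes. The time of day of killing is not given in the labels, and its part in these differences was not tested.

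**Figure D5:**
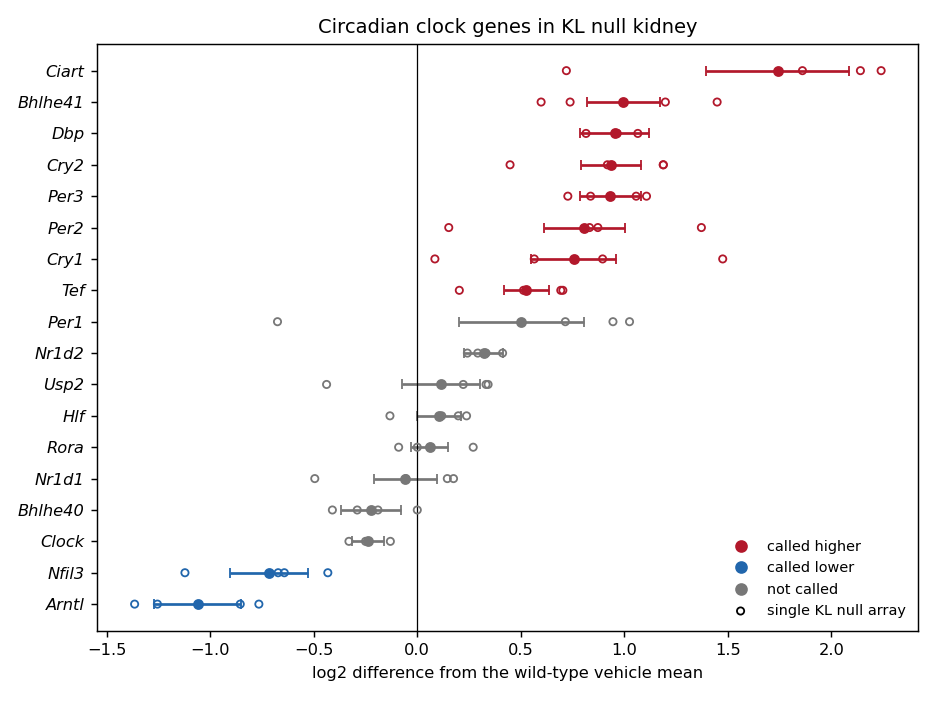
Log2 difference of clock genes between KL null and wild-type vehicle (horizontal), with filled points for the limma difference, whiskers for its SE and open points for each KL null array minus the wild-type mean. Ciart at 1.74 is the furthest to the higher side and Arntl at -1.06 to the lower side.

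Few markers of other cell types in the tissue passed the test. The shares of podocyte and endothelial genes called were below that of all genes, though most of their differences were negative. So were 17 of 23 differences in the distal sodium and potassium list and 19 of 27 in the collecting duct list. Podocyte genes showed 0 higher and 1 lower of 13, Podxl (-0.37), or 7.7% called against 8.01% of all genes, with a median of -0.24. Of the 13, 12 had a negative difference, 7 an unadjusted p below 0.05 and 5 no overlap between the groups. The list mean ranged from 7.64 to 7.8 in wild type and from 7.46 to 7.6 in KL null without overlap, and the count was 0 without wild-type vehicle replicate 1 or 3 or KL null replicate 1, 2 or 3 and 2 without wild-type vehicle replicate 4 or FGF23 replicate 1. Endothelial genes showed 0 higher and 1 lower of 20, Ece1 (-0.52), or 5.0% called, with a median of -0.16. Of the 20, 16 had a negative difference, 8 an unadjusted p below 0.05 and 4 no overlap, against 4241 and 2750 of all 19938 genes. Both calls were lost without wild-type vehicle replicate 1 or 3 or KL null replicate 1, 2 or 3, up to an adjusted p of 0.091 for Podxl and 0.131 for Ece1. Of adrenal genes 1 of 13 was higher (Hsd3b1), of adipocyte genes 1 of 11 was lower (Lpl), of urothelial genes 1 of 10 was higher (Krt20), and of erythroid genes 0 of 5 were called by limma, with an unadjusted p below 0.05 for 2. Each of the 3 single calls, Hsd3b1, Lpl and Krt20, was lost without wild-type vehicle replicate 1 (Hsd3b1, adjusted p = 0.0505), without wild-type vehicle replicate 3 (Krt20, 0.0689) or in most fits that left out 1 array (Lpl, up to 0.152). Lymphocyte and neutrophil list means overlapped between the groups. Cell cycle genes, with 11.1% called against 8.01% of all genes and a median of 0.07, showed 3 higher and 0 lower of 27. Among them were Pcna (0.41) and Ccnd1 (0.54), and 1 was called without wild-type vehicle replicate 2, 3 or 4 or KL null replicate 2 and 0 without KL null replicate 3.

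Because the strain label differs with genotype, the genes beside Kl and genes known to carry strain alleles were read separately. The window around Kl held up to 25 measured genes on either side and reached 25 on one side and 4 on the other. Of these 29 genes 1 was higher and 2 lower, or 10.3%, near the 8.01% of all genes. Brca2, a DNA repair gene, read 5.31, 5.66, 5.62 and 5.57 in wild type and 5.99, 6.23, 6.55 and 6.5 in KL null (0.78, adjusted p = 0.00139). Hsph1, a heat shock protein, read 10.27, 10.06, 10.23 and 10.1 in wild type and 9.2, 9.06, 8.91 and 9.66 in KL null (-0.96, adjusted p = 0.00269). Hmgb1, a chromatin protein, differed by -0.56 (adjusted p = 0.0166, and 0.0507 without KL null replicate 3). The share of called genes per chromosome ranged from 5.64% to 11.21% over the autosomes and the X. On the Y 0 of 9 measured genes were called, and of the mitochondrial genome 0 of 2.

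Casp4, also known as caspase 11, which is disrupted in some sublines of strain 129, read 5.31, 5.32, 5.15 and 4.92 in wild type and 5.63, 5.95, 5.76 and 5.58 in KL null. It was higher (0.56, adjusted p = 0.0147), with an adjusted p of 0.0525 without KL null replicate 2. Nnt, which carries a deletion in the C57BL/6J subline, read 10.31, 10.48, 10.63 and 10.92 in wild type and 10.4, 10.41, 10.37 and 10.29 in KL null and was not called (-0.22, adjusted p = 0.433). Their part in the genotype difference was not tested.

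Several of the largest changes lay outside the lists. Among the 12 largest increases, Mtarc1, a reductase of the outer mitochondrial membrane, read 4.77, 5.43, 5.19 and 5.26 in wild type and 6.16, 6.78, 7.2 and 7.74 in KL null (1.81, adjusted p = 0.000717). Serpina3n, an acute-phase protease inhibitor, read 4.77, 5.08, 4.78 and 4.44 in wild type and 5.21, 6.97, 6.5 and 7.21 in KL null (1.71, adjusted p = 0.0036). Both were separated from the wild-type vehicle arrays, with KL null replicate 1 the lowest of its group, but a wild-type array given FGF23 read 5.28 for Serpina3n, above that replicate. Gm6614, a predicted gene that the naming rule leaves out and that was chosen after its values were seen, read 4.01, 4.55, 3.96 and 5.46 in wild type and 9.76, 9.92, 9.0 and 9.51 in KL null, 33.2-fold higher (5.05, SE 0.508, adjusted p = 3.55e-05).

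Among the 12 largest decreases, Ly6f, of a family of small lipid-anchored surface proteins, read 8.24, 9.23, 8.56 and 9.22 in wild type and 5.7, 5.49, 5.39 and 6.42 in KL null, or 8.35-fold lower (log2 -3.06, adjusted p = 5.88e-06). Rnf24, a RING finger protein, read 9.65, 8.72, 9.55 and 9.07 in wild type and 6.39, 6.42, 6.26 and 6.56 in KL null, or 7.16-fold lower (log2 -2.84, adjusted p = 2.03e-06). Slc17a2, a relative of Slc17a3, read 8.19, 7.78, 7.98 and 7.6 in wild type and 5.29, 5.13, 5.06 and 5.28 in KL null, or 6.49-fold lower (log2 -2.70, adjusted p = 1.21e-05). All 3 were far outside the spread of either group. Mfsd2a, which carries lysophospholipids with long-chain fatty acids, read 8.95, 7.55, 8.36 and 8.01 in wild type and 5.27, 5.94, 5.95 and 6.52 in KL null, or 4.92-fold lower (log2 -2.30, adjusted p = 0.000195). Sec14l3, a lipid-binding protein, read 9.29, 8.43, 8.97 and 6.73 in wild type and 5.93, 5.54, 5.5 and 5.38 in KL null (-2.77, adjusted p = 0.0228). The wild-type arrays given FGF23 ranged from 4.97 to 9.0 for Sec14l3, so it varied widely among wild-type kidneys, and its call was lost without wild-type vehicle replicate 1 or 3 or KL null replicate 2, 3 or 4 (up to 0.0785).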

How the data were processed

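Total kidney RNA of 12 samples was hybridised to Affymetrix whole-transcript arrays. The authors deposited log2 signals, 1 per probe set, which per the submitters' processing notes came from RMA (Partek 6.2). RMA is meant to bring arrays to a common distribution and compresses differences of dim probe sets. The deposited arrays still differed, with medians from 6.15 to 6.29 and SDs from 2.166 to 2.281. Background and probe-level settings are not given in the sources used here. No scanner file was read, so no probe set could be compared with its background.

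The table held 28853 probe sets, of which 21789 had 1 gene symbol in the platform annotation, 1621 had several and 5443 had none. Probe sets with several symbols or none were left out. Of those with 1 symbol, 21698 matched the RefSeq gene table of GRCm38.p6. For each of the 19938 genes, the probe set of highest mean across 12 arrays was kept. Of the called genes, 90 had several probe sets, 7 of these with another of opposite sign and 0 with a called one.

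Differences were fitted by limma's lmFit and eBayes (version 3.58.1, R 4.3.3, two-sided tests) with 3 group means, 12 arrays and 9 residual degrees of freedom, and p-values were adjusted by the Benjamini-Hochberg method over 19938 genes. The script was tested on simulated data. Python 3.11.15 with pandas 2.3.3 handled tables, and matplotlib 3.10.9 drew plots. The number of arrays limits the precision.

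The members and the 43 gene lists were chosen with earlier results of these data known. Of 1239 list entries 1169 were measured. Genes were named by rule: 10 set genes, the 12 largest increases and 12 largest decreases with a call and full separation of the arrays (leaving out predicted genes, clones, small RNAs, receptor segments of immune cells and olfactory receptors), the 4 called members of smallest p in each list (2 of smallest p where none was called), and called genes among 25 on either side of Kl. Cyp24a1 was not analysed here. Near-identical genes (Cyp4a12a and Cyp4a12b, Akr1c12 and Akr1c13, Slc22a26 and its neighbours) may share probe signal. Promoter windows come from RefSeq on GRCm38.p6, and 16 of 18 clock genes had one. The alternatives were 22 settings of scaling, arrays, weights, moderation, filter, probe set choice and pairing.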

Additional observations from a re-analysis of the deposited data

Results flagged for a closer look

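Among 374 groups of 4 arrays checked for 1 array far from the other 3, for the genes of the naming rule and the further genes named, 15 had one (4.0%), where chance gives about 1 in 20. KL null replicate 1 was that array in 6 of them and KL null replicate 2 in 5, while each wild-type vehicle array was so once and KL null replicates 3 and 4 never.

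In KL null replicate 1, Gatm read 11.62 against 11.14 to 11.19 in the other KL null arrays. Cyp2e1 read 10.79 against 11.42 to 11.52. Igfbp4 read 10.26 against 10.5 to 10.53, and Podxl 9.21 against 9.48 to 9.52. Dcn read 10.29 against 11.06 to 11.18. Anxa1 read 8.36 against 9.45 to 9.63, which put this array at the wild-type level. For Gatm, Cyp2e1, Dcn and Anxa1 the array lay toward wild type, and for Igfbp4 and Podxl away from it.

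In KL null replicate 2, S100g read 11.89 against 12.12 to 12.15 and C4b read 6.76 against 6.04 to 6.15. Acadm read 11.92 against 12.08 to 12.09. Dab2 read 11.54 against 11.32 to 11.34, and Fbp1 12.47 against 12.33 to 12.35.

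In wild type, Havcr1, the injury marker KIM-1, read 10 in replicate 1 against 4.59 to 5.17 in the other vehicle arrays. Slc22a26 read 6.09 in replicate 4 against 8.55 to 8.98, while the wild-type arrays given FGF23 read 5.79, 5.97, 8.61 and 8.7. Slc17a3 read 11.51 in replicate 2 against 11.74 to 11.78, and Masp1 5.58 in replicate 3 against 5.37 to 5.38.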

How the results depend on the processing

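Against 1598 called genes (713 higher, 885 lower), the 22 alternative settings left 98 of the 131 called genes given by the naming rule called in every setting, and 0 of them changed direction. Of 8 such genes not called, 5 were called in some setting. Array weights gave 2852 called genes, 1398 higher and 1454 lower, of which 1588 were shared. Centring each array on its median gave 453 higher and 1369 lower. Leaving out KL null replicates 1 and 2 together gave 613 higher and 571 lower genes, and array spread as a covariate 940 higher and 862 lower, so the balance turned to more higher genes in both. Leaving out 1 array at a time gave 828 to 1728 called genes, 348 to 868 higher, 461 to 886 lower, 50 to 84 at least 2-fold higher and 59 to 94 at least 2-fold lower. The cause of these shifts was not tested, beyond the fewer samples in a fit that leaves arrays out. With the replicate number as a block, 1548 genes were called (729 higher, 819 lower). Same-numbered arrays correlated at -0.137, 0.169, -0.04 and -0.018 in their deviations from the group means, and only those of number 2 correlated best with each other, so the numbers were not taken as a pairing. The median difference of all genes moved by less than 0.1 under every scaling tried. Signal over background could not be assessed, so folds of dim probe sets may be understated.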

Other observations

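Of 33 interferon-stimulated genes 25 had a negative difference, and of those called beside Gbp3 2 were lower and 1 higher. Irf7, a transcription factor of the response, read 7.83, 7.57, 7.83 and 7.56 in wild type and 7.49, 7.09, 7.01 and 7.27 in KL null (log2 difference -0.48, limma adjusted p = 0.0123). The antiviral gene Rsad2 read 8.02, 8.29, 8.09 and 8.24 in wild type and 8.01, 7.6, 7.45 and 7.27 in KL null (-0.58, adjusted p = 0.0293). Ifit2 went up, from 7.45, 7.75, 7.33 and 7.56 to 8.11, 8.1, 7.97 and 7.66 (0.44, adjusted p = 0.0447). Leaving out 1 array ended the call of Irf7 for wild-type vehicle replicates 1 and 3 and KL null replicate 3, of Rsad2 for wild-type vehicle replicates 2, 3 and 4 and KL null replicates 2, 3 and 4 and of Ifit2 for FGF23 replicates 2 and 4, wild-type vehicle replicates 1, 3 and 4 and KL null replicates 1, 2 and 3.

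Among lipid and epithelial genes not yet described, Lpl, the lipoprotein lipase, read 11.24, 10.53, 11.07 and 10.06 in wild type and 9.68, 9.73, 9.9 and 9.61 in KL null (-0.99, adjusted p = 0.0483), with the call lost in 9 of 12 fits that left out 1 array. The keratin Krt20 read 4.66, 4.57, 4.2 and 4.42 in wild type and 4.54, 5.33, 5.89 and 6.04 in KL null (0.99, adjusted p = 0.0184), with the call lost without wild-type vehicle replicate 3 (0.0689), KL null replicate 3 (0.0703) or KL null replicate 4 (0.0518). Of the respiratory chain, Uqcrc1 of complex III read 10.93, 10.85, 11.08 and 10.86 in wild type and 10.72, 10.55, 10.46 and 10.44 in KL null (-0.39, adjusted p = 0.0236), with the call lost for wild-type vehicle replicates 1 and 3 and KL null replicates 2, 3 and 4.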
